A study of Mus musculus with 15 samples.

Results

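Stool bacteria were followed over dextran sulfate sodium (DSS) colitis in the mice whose labels give the treatment as GPR15L. DSS is a sulfated polysaccharide that damages the colonic epithelium when mice drink it. The libraries were chosen by 2 labels, the treatment and the time in the title. The rule used no measured value, but it was set with earlier results of these data known. They numbered 7 of the 15 libraries of the series: 3 from before DSS (libraries 1 to 3) and 4 from after it (libraries 8 to 11). All mice of the series, controls included, were littermates lacking Gpr15l, so no library shows a mouse with the intact gene. The sample titles write Gpr15-/- where the series text writes Gpr15l, and the series text was followed here. GPR15L is a chemoattractant peptide of barrier epithelia and the ligand of the receptor GPR15. Recombinant human GPR15L was given to this arm once a day from day 3 to day 9, by the rectal route per the series title, and the other arm received sterile phosphate-buffered saline (PBS) as placebo. The PBS arm entered as 3 libraries before DSS (4 to 6) and 4 after (12 to 15).

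What the comparison of after with before can show was limited by the design. The libraries from before DSS preceded both the DSS and the peptide, so within this arm DSS, peptide and elapsed time cannot be told apart, and neither can the run of library names, which differs between the times. The mouse numbers in the labels run from 1 to 15 and none is shared between the times, so the libraries were not read as the same mice sampled again. Mice were housed 3 to 4 per cage and mice of one cage share bacteria. The labels give no cage, so the part of cages was not tested. The labels give male for the libraries where the series text speaks of both sexes.

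The gut of a healthy mouse is dominated by Bacteroidota, which break down complex carbohydrates, and by Clostridia of the Bacillota, many of which ferment fibre to short-chain fatty acids such as butyrate. Muribaculaceae are the most common Bacteroidota family of mice and grow on plant and mucus polysaccharides. A few groups live close to the epithelium, among them Mucispirillum and Helicobacter in the mucus layer and Akkermansia, which feeds on mucin. In many studies of DSS colitis facultative anaerobes such as Enterobacterales expand, since inflammation brings oxygen and nitrate into the lumen.

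Stool DNA was amplified over the V4 part of the bacterial 16S rRNA gene, and the reads were counted for each exact sequence, called an amplicon sequence variant (ASV). An ASV can stand for 1 strain or several related ones, and one strain can carry several gene copies and so appear as several ASVs. ASVs were numbered by their total count over the series. The 7 libraries held 657979 counts, between 53417 and 197433 each, and 389 ASVs with at least 1 count. A family was named for 99.2% of these counts and a genus for 63.4%. Values are shares of a library's counts, in percent, so a rise of one taxon lowers the shares of all others, and no share gives a bacterial load. A taxon at 0 in all libraries of one time could make up at most 0.000912% there (3 counts over the summed total of that time, for either time). This covers counting error only, since PCR reads are not independent molecules. Folds against a time at 0 are lower bounds against that floor.

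The libraries of the 2 times stood apart in composition. Bray-Curtis distance, which runs from 0 for identical shares to 1 for no shared ASV, lay between 0.311 and 0.480 within the libraries from before DSS and between 0.283 and 0.538 within those from after it. All 12 distances from a library before to a library after were larger, between 0.582 and 0.721. Time accounted for an R2 of 0.563 of the squared distances (pseudo-F = 6.45, exact permutation test over all 35 ways to label 3 and 4 libraries, p = 0.0286, the smallest this design can give). On shares summed per genus R2 was 0.415 and did not pass (exact permutation p = 0.0571). The 16 distances from the arm after DSS to the PBS arm after DSS had a median of 0.474, against 0.635 for the 12 to its own libraries from before. The 2 sets overlapped, since the 16 ran from 0.395 to 0.714. Within the PBS arm R2 between the times was 0.482 (exact permutation p = 0.0286).

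**Figure D1:**
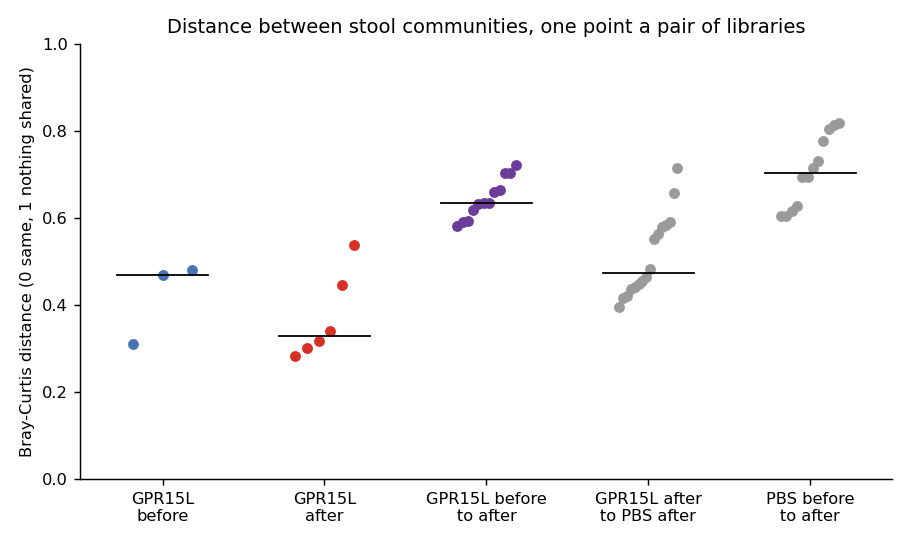
Bray-Curtis distance (vertical axis, 0 to 1, no unit) for pairs of stool libraries. Each point is 1 pair, the line is the median, and the pairs share libraries. All 12 pairs that join a library from before DSS with one from after it in the GPR15L arm lie at 0.582 or above, higher than every pair within either time of that arm (highest 0.538).

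The set of ASVs present also differed between the times. Of the 389 ASVs, 150 had counts only before DSS, 110 only after, and 129 at both times. There were 40 ASVs present in all 3 libraries from before and in none from after (10.3% of the 389), and 13 present in all 4 libraries from after and in none from before (3.34%). ASVs seen only before DSS held 21.0%, 25.0% and 30.3% of the counts in libraries 1, 2 and 3. ASVs seen only after DSS held 10.4%, 17%, 4.63% and 3.23% in libraries 8, 9, 10 and 11. The 55 ASVs present in all 7 libraries still made up most counts, with means of 63.0% ± 6.71 (SD, n = 3) before and 82.2% ± 10.7 (n = 4) after. In the PBS arm 4 ASVs were in every library before and in none after, and 11 the other way, where library 6 of that arm held only 92 ASVs and thus few that could be in all 3. The difference between the arms in these counts was not tested.

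For single taxa the quasi-likelihood test of edgeR was run on the counts of all 14 libraries of both arms, which share 1 estimate of the spread, and p-values were adjusted by Benjamini-Hochberg over all taxa of that level. Taxa with an adjusted p under 0.05 are said to have risen or fallen. Of 282 ASVs tested, 25 rose (8.87%) and 55 fell (19.5%) over DSS in the GPR15L arm, with 131 at an unadjusted p under 0.05. Of these 282 ASVs, 261 had a count in this arm. Of the 25 that rose, 21 had no count before DSS, and of the 55 that fell, 51 had no count after. The ASVs that fell summed to between 30.8% and 47.1% of a library before DSS and to between 0.299% and 1.04% after. Those that rose summed to between 0.327% and 0.574% before and to between 4.95% and 18.6% after. Both pairs of sums are descriptions, since the ASVs were picked by this same contrast.

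The separation was not complete for every call. The 2 times did not overlap for 17 of the 25 ASVs that rose and for 42 of the 55 that fell, and 2 of those that fell had counts in 1 library only. Over all 261 tested ASVs with a count in the arm, 30 were higher and 53 lower after DSS without overlap. Leaving out single libraries cost most of the rises: between 1 and 9 ASVs rose and between 19 and 29 fell when 1 of the 7 libraries was left out, the fewest in all (21) without library 9. Without library 6 of the PBS arm, which lay apart from libraries 4 and 5, 34 rose and 65 fell. With library 7 counted as PBS after DSS, as its title has it, 9 rose and 27 fell. The share that rose among all calls also moved with the method: 54 rose and 55 fell by limma voom, 46 and 60 by edgeR's newer method, and 41 and 49 with the 7 libraries fitted alone.

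**Figure D2:**
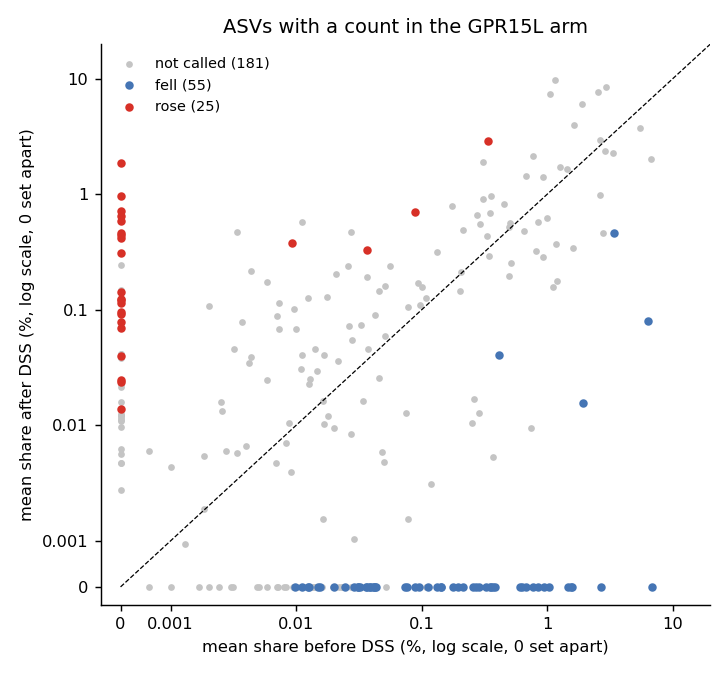
Mean share before DSS (horizontal, percent, log scale) against mean share after DSS (vertical, percent, log scale) for the 261 tested ASVs with a count in the GPR15L arm, with shares of 0 set apart at the edge and equal shares on the dashed line. Most ASVs that rose (red) or fell (blue) lie on an edge, at 0 at the other time.

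At higher ranks fewer taxa passed. Of 78 genera 2 rose (2.56%) and 6 fell (7.69%), of 38 families 1 rose (2.63%) and 0 fell (0%), and of 27 orders 1 rose (3.7%) and 0 fell (0%). At an unadjusted p under 0.05 there were 25 genera, 14 families and 10 orders. DESeq2 called 14 genera, 7 families and 4 orders over DSS in this arm, and limma voom 14, 5 and 7. These counts moved with the libraries fitted. Without library 6 of the PBS arm edgeR called 17 genera, 11 families and 6 orders. The 7 libraries of the arm fitted alone gave 18 genera, 8 families and 3 orders. With any 1 of the 7 libraries left out of the fit of both arms, between 0 and 3 genera were called, with 0 without library 3, 8, 9, 10 or 11. Families came to between 0 and 3, with 0 without library 1, 3 or 11. Of 36 families with a count in the arm, shares of 10 did not overlap between the times (27.8%), 6 of them higher after DSS and 4 lower.

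**Figure D3:**
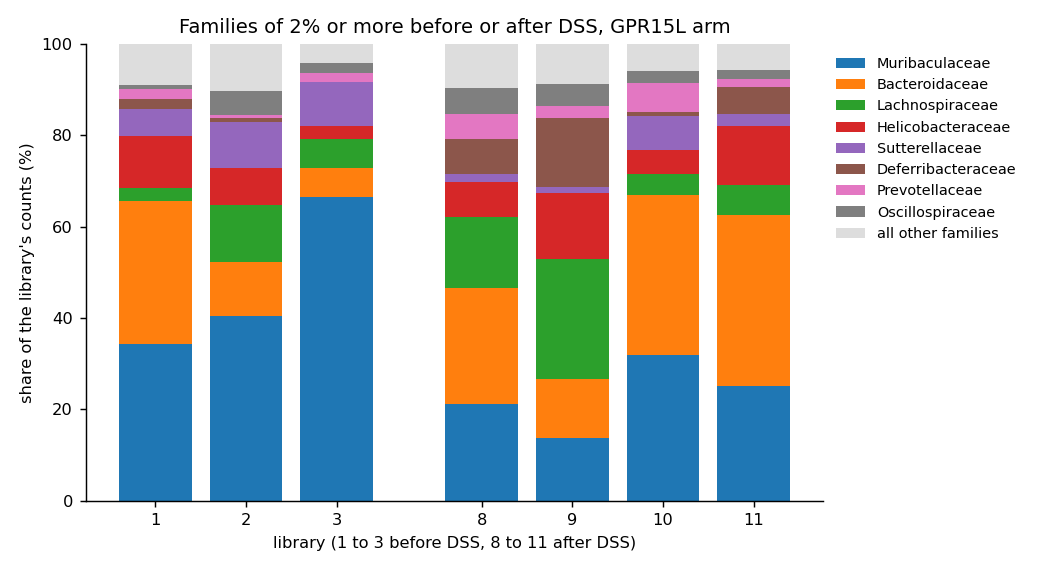
Share of each library's counts (percent, stacked bars) held by the 8 families with a mean of 2% or more at either time, for libraries 1 to 3 before and 8 to 11 after DSS. Muribaculaceae is lower in every library after DSS than in any before, while Bacteroidaceae and Lachnospiraceae overlap between the times.

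Muribaculaceae held most of the share that was lost: of 36.4% in ASVs that fell, 30.3% belonged to it before DSS. The family made up 34.2%, 40.5% and 66.5% of counts in libraries 1, 2 and 3, and 21.1%, 13.7%, 31.8% and 25.0% in libraries 8, 9, 10 and 11. Every library after DSS was below every library before. The mean went from 47.1% ± 17.1 (n = 3) to 22.9% ± 7.57 (n = 4), a fitted log2 change of -1.51 ± 0.69 (SE) that did not pass across families (edgeR adjusted p = 0.107). In the PBS arm the family stood at 12.8% ± 1.86 before and 17.7% ± 6.26 after. The difference between the arms' courses, -1.84 ± 0.99 on the log2 scale, did not pass either (edgeR adjusted p = 0.225).

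Within the family nearly all called ASVs fell, while many were not called. Of its 42 tested ASVs 22 fell, 1 rose and 19 were not called. All ASVs tested, for comparison, gave 55 that fell and 25 that rose of 282. The median log2 ratio of mean shares, with a time at 0 set to its floor, was -3.69 over the 42 and -0.37 over the 260 ASVs for which a ratio could be given. The 22 that fell summed to 30.3% ± 10.4 before DSS and to 0.579% ± 0.358 after, and 19 of them had no count after DSS. The 19 that were not called summed to 16.3% ± 8.63 before and 19.4% ± 5.63 after.

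ASV13 was the most abundant ASV that fell. It held 4.41%, 6.31% and 9.80% of libraries 1, 2 and 3 and was at 0 in all 4 libraries after DSS, at least 7507-fold lower (edgeR adjusted p = 0.00870). No library of one time came near the other. ASV37 (2.76%, 1.80% and 3.46%), ASV49 (2.20%, 1.11% and 1.46%) and ASV50 (0.842%, 0.930% and 1.07%) were also at 0 in every library after DSS. They were at least 2931-fold, 1741-fold and 1038-fold lower (edgeR adjusted p = 0.00965, 0.00712 and 0.00712). ASV61 went from 0.513%, 1.16% and 2.97% to 0, at least 1697-fold lower, and ASV57 from 0.453%, 1.18% and 2.75% to 0, at least 1603-fold lower (edgeR adjusted p = 0.0125 and 0.0101). Without library 3 the means before DSS were 0.836% for ASV61 and 0.816% for ASV57. These 6 ASVs kept an adjusted p under 0.05 with each library left out (highest 0.0402; ASV49 with libraries 8 to 11 only, since leaving out a library from before DSS put it below the count filter) and under each of 9 other settings (highest 0.0140).

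The other named Muribaculaceae ASVs that fell were less secure. ASV16 held 6.88%, 1.42% and 10.9% before and 0.0208%, 0.0321%, 0.265% and 0% after, a fitted log2 change of -6.17 ± 1.86 (edgeR adjusted p = 0.0340). ASV18 held 3.27%, 2.89% and 4.07% before and 0.660%, 0.204%, 0.706% and 0.264% after (-2.75 ± 0.89, edgeR adjusted p = 0.0454). Neither overlapped between the times, but each call was lost without any 1 of libraries 1, 3, 8, 9 or 11 (adjusted p up to 0.0799 and 0.0769). The mean of ASV16 was 4.15% before DSS without library 3 and 0.0176% after it without library 10. ASV97 was at 0 in library 1, at 1.84% and 1.25% in libraries 2 and 3 and at 0 after DSS, so the times overlapped at 0, and its mean of 1.03% was 0.623% without library 2. It was at least 1130-fold lower (edgeR adjusted p = 0.0376), a call lost without any 1 of the libraries after DSS (up to 0.0793).

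Not all of the family was lower. ASV20, its only member that rose, went from 0.259%, 0.297% and 0.461% to 1.5%, 1.71%, 6.59% and 1.71%. Every library after DSS was above every library before, library 10 stood apart from the other 3 after DSS, and the mean after DSS was 1.64% without it. The fitted log2 change was 3.31 ± 1.20 (edgeR adjusted p = 0.0497), and the call was lost without any 1 of the 7 libraries (adjusted p between 0.0701 and 0.145). ASV8, the most abundant ASV of the family after DSS, is named here after its values were seen. It held 0.409%, 3.52% and 3.66% before and 8.37%, 3.65%, 7.35% and 11.1% after, overlapping in library 9 (log2 change 1.94 ± 0.96, edgeR adjusted p = 0.118).

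**Figure D4:**
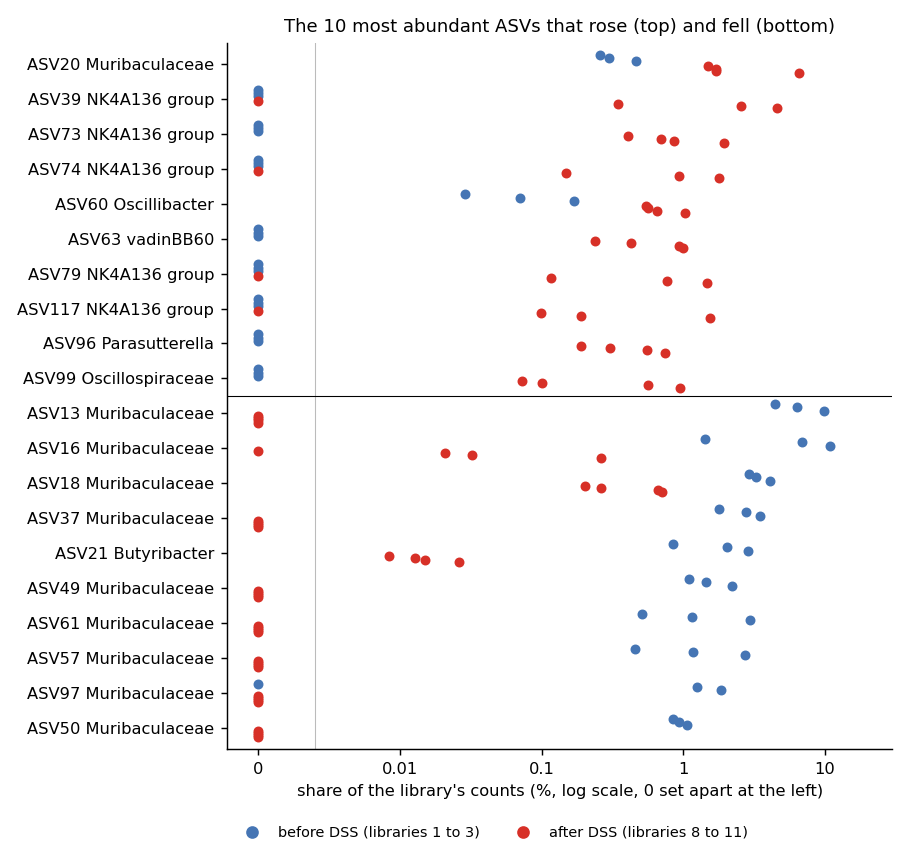
Share of a library's counts (horizontal axis, percent, log scale, with 0 set apart at the left) for the 10 most abundant ASVs that rose and the 10 most abundant that fell over DSS in the GPR15L arm. Blue points are the 3 libraries before DSS and red points the 4 after; of those that fell, 9 are Muribaculaceae, and of those that rose, 5 are of the Lachnospiraceae NK4A136 group.

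Bacteroides and Parabacteroides, Bacteroidota that break down host and plant glycans, overlapped between the times. Bacteroides held 31.3%, 11.7% and 6.27% before DSS and 25.5%, 12.9%, 35.1% and 37.5% after. Library 1 was as high as the libraries after DSS, and the mean before DSS, 16.4% ± 13.2, was 9.00% without it. The mean after was 27.8% ± 11.2 (log2 change 0.70 ± 0.85, edgeR adjusted p = 0.715; -0.33 with the 7 libraries fitted alone and -0.17 with no count filter). Parabacteroides went from 2.67%, 1.53% and 0.748% to 0.625%, 0.192%, 0.494% and 0.992% (-1.59 ± 0.81, edgeR adjusted p = 0.187). With the 7 libraries fitted alone Parabacteroides fell (-2.46, edgeR adjusted p = 0.041). Of the 11 tested ASVs of the 2 genera 1 rose and 2 fell, with a median log2 ratio of -0.26.

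The most abundant Bacteroides ASVs differed from each other, and they are named here after their values were seen. ASV3 held 3.04%, 0.195% and 0.236% before and 8.62%, 2.30%, 15.9% and 12.3% after (log2 change 3.00 ± 1.21, edgeR adjusted p = 0.0673). ASV4 held 8.25%, 5.32% and 2.88% before and 2.56%, 2.27%, 4.25% and 5.85% after, with broad overlap (-0.47 ± 0.84, adjusted p = 0.749). ASV10 ran beside ASV4 at a ratio of ASV4 to ASV10 between 1.51 and 1.84 in the 10 libraries of both arms that held them.

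Rikenellaceae and Prevotellaceae, further Bacteroidota families, moved unlike each other. Rikenellaceae went from 2.20%, 1.93% and 1.15% to 0.714%, 0.153%, 1.15% and 0.940%, with libraries 3 and 10 close together (log2 change -1.32 ± 0.84, edgeR adjusted p = 0.280). Rikenella, its smaller genus, fell from 0.00405%, 0.0233% and 0.102% to 0, at least 47.3-fold (adjusted p = 0.0395). Prevotellaceae, nearly all of it Prevotellaceae UCG-001, stood at 2.30%, 0.665% and 1.97% before and 5.51%, 2.46%, 6.43% and 1.63% after (0.85 ± 0.77, adjusted p = 0.468). Of the 6 tested ASVs of these families 2 fell and 0 rose, with a median log2 ratio of -2.10. By contrast Odoribacter, a butyrate-producing Bacteroidota genus of the Marinifilaceae represented by ASV71, went from 0.0334%, 0.0335% and 0.0430% to 0.585%, 0.366%, 0.220% and 0.152%. The times did not overlap, and ASV71 rose (log2 change 3.16 ± 1.10, edgeR adjusted p = 0.0484), while the genus did not pass (2.51 ± 0.83, adjusted p = 0.0635; 0.0353 without library 6).

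The large Clostridia families overlapped in their sums and held ASVs that rose and ASVs that fell. Lachnospiraceae held 2.94%, 12.6% and 6.46% before DSS and 15.6%, 26.4%, 4.72% and 6.63% after (log2 change 0.24 ± 0.75, edgeR adjusted p = 0.961). Of its 100 tested ASVs 12 rose and 13 fell, beside 8.87% and 19.5% of all ASVs tested. The 13 that fell summed to 1.42%, 6.48% and 4.07% before and to 0.0262% or less in each library after. The 12 that rose summed to 0.0218% or less before and to 5.83%, 13.0%, 2.11% and 0.930% after. Over the whole list of butyrate-associated Clostridia (Lachnospiraceae, Ruminococcaceae, Oscillospiraceae and Butyricicoccaceae) 17 ASVs rose and 23 fell of 159 tested, with a median log2 ratio of 0.23. Neither count was tested against the rest of the ASVs. The list summed to 4.00%, 19.5% and 9.01% before and to 22.6%, 33.8%, 7.74% and 9.24% after, with overlap, and its mean before DSS of 10.8% ± 7.90 was 6.51% without library 2.

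Of the 25 ASVs that rose, 6 belonged to the Lachnospiraceae NK4A136 group, a genus-level group of fibre-fermenting Clostridia with 29 of the 282 ASVs tested. As a whole the group held 0.321%, 3.41% and 1.46% before and 9.40%, 19.5%, 3.06% and 4.29% after (log2 change 1.77 ± 1.07, edgeR adjusted p = 0.274). Library 10 lay below library 2, and the means of 1.73% ± 1.56 and 9.06% ± 7.47 became 0.890% without library 2 and 5.58% without library 9. Of its 29 tested ASVs 6 rose and 3 fell, beside 8.87% and 19.5% of all ASVs tested.

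ASV73 of this group was at 0 in libraries 1 to 3 and at 0.692%, 1.93%, 0.859% and 0.408% in libraries 8 to 11, at least 1066-fold higher (edgeR adjusted p = 0.0329). It was present in every library after DSS. ASV39 (2.56%, 4.57%, 0.344% and 0%), ASV74 (0.939%, 1.80%, 0.150% and 0%) and ASV79 (0.771%, 1.48%, 0.116% and 0%) were likewise at 0 before DSS, but also in library 11. Library 9 carried much of the means of these 3 after DSS, 1.87%, 0.723% and 0.592%, which were 0.969%, 0.363% and 0.296% without it. They were at least 2050-fold, 792-fold and 649-fold higher (edgeR adjusted p = 0.0285, 0.0288 and 0.0313). Their shares kept nearly fixed ratios, 2.30 to 3.09 for ASV39 to ASV74 and 2.75 to 3.32 for ASV39 to ASV79, over the 6 libraries of both arms that held them. Whether they are separate organisms was not tested. ASV117 was at 0.0997%, 1.55%, 0.190% and 0% after DSS, with a mean of 0.460% that was 0.0965% without library 9 (adjusted p = 0.0454). Each of these 5 calls was lost when a single library from before DSS was left out (adjusted p up to 0.0833). ASV73 was also lost without any 1 library from after DSS, and ASV39, ASV74 and ASV79 without library 8, 9 or 10.

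Butyribacter, a butyrate-producing genus of the same family, fell. It held 1.11%, 3.88% and 2.59% of libraries 1 to 3 and 0.00831%, 0.0262%, 0.0128% and 0.0150% of libraries 8 to 11. The groups were far apart, with a fitted log2 change of -7.83 ± 1.86 (edgeR adjusted p = 0.0217), and its main member ASV21 fell as well (-6.81 ± 1.84, adjusted p = 0.0232). The call was lost for the genus without library 3 and for genus and ASV without any 1 library from after DSS (adjusted p up to 0.0892 and 0.0662). Roseburia, another butyrate producer, fell from 0.0218%, 0.322% and 0.0399% to 0, at least 140-fold (edgeR adjusted p = 0.0395). The mean of 0.128% was 0.0308% without library 2, and the call was lost without any 1 of the 7 libraries (up to 0.106). Lachnospiraceae UCG-010 fell from 0.0101%, 0.0189% and 0.0175% to 0, and UCG-009 of the Butyricicoccaceae from 0.0405%, 0.154% and 0.0909% to 0 (adjusted p = 0.0395 and 0.0217).

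Oscillospiraceae, slow-growing Clostridia that include butyrate producers, held a lower share than Lachnospiraceae in each library of the arm and overlapped between the times. The family held 0.837%, 5.33% and 2.12% before and 5.70%, 4.93%, 2.55% and 1.93% after (log2 change -0.06 ± 0.91, edgeR adjusted p = 1.00). Of 39 tested ASVs 4 rose and 8 fell, near the 8.87% and 19.5% over all ASVs, and the 8 that fell went from sums of 0.190%, 1.48% and 0.676% to 0 in all 4 libraries after. Within Oscillibacter both directions occurred. ASV60 went from 0.0289%, 0.169% and 0.0701% to 1.02%, 0.548%, 0.651% and 0.565%, without overlap (3.27 ± 1.14, adjusted p = 0.0484), a call lost without any 1 of the 7 libraries (up to 0.123). Its mean before DSS, 0.0893%, was 0.0495% without library 2. ASV91, named after its values were seen, went from 0.0289%, 0.715% and 0.115% to 0 (edgeR adjusted p = 0.0120). ASV99, of no named genus, was at 0 before and at 0.943%, 0.566%, 0.10% and 0.0730% after, at least 461-fold higher (adjusted p = 0.0288). Its mean of 0.421% was 0.246% without library 8, and the call was lost without any 1 library other than library 11 (up to 0.0759).

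The Clostridia vadinBB60 group, known mainly from sequences, held 1 ASV that rose under all settings tried for it, ASV63. Its sum went from 0.0608%, 0.0713% and 0.143% to 1.22%, 1.02%, 0.370% and 0.485%, without overlap (log2 change 2.32 ± 0.96, edgeR adjusted p = 0.0887; 0.0338 without library 6). This ASV made up most of it. ASV63 was at 0 in libraries 1 to 3 and at 1.00%, 0.940%, 0.238% and 0.425% after DSS, at least 714-fold higher (adjusted p = 0.000914). It kept its call with each of the 7 libraries left out (adjusted p up to 0.0116). Of the 13 tested ASVs of the group, 1 rose and 2 fell, with a median log2 ratio of -1.25 over the 10 with a ratio.

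Among mucus-associated genera Akkermansia rose, and with it its family Akkermansiaceae and order Verrucomicrobiales, all 3 from the same ASV counts. Akkermansia was at 0 in libraries 1 to 3 and at 0.0734%, 0.181%, 0.721% and 0.273% in libraries 8 to 11. It was present in every library after DSS and in none before. Its mean of 0.312% ± 0.284 (n = 4) was at least 342-fold higher, and was 0.176% without library 10. The edgeR adjusted p was 0.0217 as a genus, 0.0137 as a family and 0.00634 as an order. The order kept its call with each library left out (up to 0.0394), the family lost it without library 1, 3 or 11 (up to 0.0607), and the genus without any 1 of the 7 (0.0528 to 0.0775). Akkermansia was at 0 in all 7 libraries of the PBS arm, before and after DSS. With both PBS times at 0 the fit gave no usable estimate of the difference between the arms' courses (SE 30208 for the family). Whether the courses differed could thus not be tested. Library 7 held Akkermansia at 0.00179%.

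Mucispirillum, a spiral bacterium of the mucus layer, held 2.18%, 0.840% and 0.150% before and 7.68%, 15.2%, 0.797% and 6.00% after. Library 10 lay within the range from before DSS and the other 3 above it. The mean went from 1.06% ± 1.03 to 7.43% ± 5.97, and was 0.495% before DSS without library 1 and 4.83% after without library 9. The change did not pass as a genus (log2 change 2.36 ± 1.23, edgeR adjusted p = 0.192) or as the family Deferribacteraceae (2.76 ± 1.15, adjusted p = 0.0887). Both passed without library 6 of the PBS arm (0.0424 and 0.0297), where Mucispirillum reached 24.2%. As a list, the 2 mucus-associated genera had 1 of 3 tested ASVs that rose and a median log2 ratio of 2.81.

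Helicobacter, which colonises the mucus of the caecum and colon, overlapped between the times: 11.5%, 8.14% and 2.83% before and 7.68%, 14.4%, 5.06% and 12.9% after (log2 change 0.16 ± 0.67, edgeR adjusted p = 0.986; -0.56 with the 7 libraries fitted alone and -0.0029 with TMM). None of its 4 tested ASVs passed, and the 4 hold all of the Campylobacterota tested, with a median log2 ratio of 0.69. They differed in direction, as chosen after their values were seen: ASV6 went from 1.63%, 3.07% and 1.02% to 4.81%, 6.6%, 3.89% and 8.94% without overlap (1.83 ± 0.73, adjusted p = 0.0673). ASV5 went from 1.77%, 4.56% and 1.62% to 0.596%, 1.76%, 0.616% and 0.972% (-1.34 ± 0.78, adjusted p = 0.179).

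Sutterellaceae, Pseudomonadota of the gut that grow on amino acids and nucleosides rather than sugars, were represented by Turicimonas and Parasutterella. Turicimonas held 5.79%, 9.98% and 9.51% before and 1.29%, 0.997%, 6.49% and 1.85% after. Library 10 stood apart from the other 3 and overlapped library 1, and the mean after DSS of 2.66% was 1.38% without it. The change did not pass (log2 change -1.82 ± 1.01, edgeR adjusted p = 0.218; 0.0397 with the 7 libraries fitted alone). Parasutterella was at 0 in libraries 1 to 3 and at 0.429%, 0.246%, 1.07% and 0.747% after DSS, at least 683-fold higher (adjusted p = 0.0395). It was in every library after DSS and in none before, and its main member ASV96 rose too (at least 491-fold, adjusted p = 0.0349). Both calls were lost without any 1 of the 7 libraries (up to 0.105 and 0.0775). Of the 6 tested ASVs of the family 2 rose and 0 fell, with a median log2 ratio of 1.88, while the family sum went from 8.43% ± 2.30 to 3.28% ± 2.91, and to 1.85% after DSS without library 10. The median and the sum thus differ in sign, and the abundant ASVs are those of Turicimonas.

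Erysipelotrichales, Bacillota that include the mouse genera Faecalibaculum, Dubosiella and Turicibacter, went from 0.859%, 0.760% and 0.196% to 0.0326%, 0.0248%, 0.0399% and 0.0412%, without overlap. Most of it was Erysipelotrichaceae, which did not pass (log2 change -4.65 ± 1.47, edgeR adjusted p = 0.0541) and did with the 7 libraries alone (0.000826). Of its 6 tested ASVs 2 fell and 0 rose, with a median log2 ratio of -2.84. Faecalibaculum fell from 0.391%, 0.0917% and 0.104% to 0, at least 214-fold (adjusted p = 0.0217). Its mean of 0.195% was 0.0977% without library 1, and the call was lost without any 1 library other than library 2 (up to 0.0892).

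Small groups filled out the course. Bifidobacterium, a saccharolytic genus of the Actinomycetota, went from 0.0420%, 0.0233% and 0.00478% to 0 in all 4 libraries after DSS (edgeR adjusted p = 0.0767; 0.00982 with the 7 libraries alone and 0.0353 without library 6). With Lactobacillaceae it formed a list of 5 tested ASVs that neither rose nor fell, at 0.137% ± 0.0136 before and 0.148% ± 0.0380 after and a median log2 ratio of 0.44. Sulfate reducers of the Desulfovibrionales held 1.75%, 0.648% and 0.547% before and 0.710%, 0.963%, 0.435% and 0.271% after, and 0 of 6 tested ASVs passed (edgeR; median log2 ratio 1.12). Their mean before DSS was 0.981%, and 0.597% without library 1. Clostridiaceae with Peptostreptococcaceae reached at most 0.0247% in any library of the arm, and 1 of 3 tested ASVs fell, with a median log2 ratio of -0.31.

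Facultative anaerobes stayed near the limit of counting. Enterobacterales held 0.00658%, 0% and 0% before and 0.00970%, 0%, 0.00478% and 0% after DSS. With Enterococcaceae, Streptococcaceae and Staphylococcaceae added, the shares were 0.0127%, 0% and 0% before and after DSS those of Enterobacterales alone. The 1 ASV tested in these lists, of Escherichia-Shigella, had a log2 ratio of 0.02 and did not pass. Gram-positive phyla together held 5.71%, 23.8% and 10.2% before and 26.8%, 36.9%, 9.23% and 11.1% after. Of their 195 tested ASVs 19 rose and 29 fell, beside 8.87% and 19.5% of all ASVs tested. The median log2 ratio was 0.16. The mean of these phyla before DSS of 13.2% was 7.95% without library 2.

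Sequences assigned to mitochondria, which are not bacterial and can come from host or diet, held 0%, 0.0524% and 0.0303% before DSS and 0.635%, 0.599%, 0.446% and 0.198% after. Every library after DSS was above every library before. The difference did not pass among families (log2 change 3.46 ± 1.52, edgeR adjusted p = 0.0956; 0.0116 with the 7 libraries alone). All sequences besides bacteria summed to 0.471% ± 0.198 after DSS and 0.0289% ± 0.0272 before, with 0 of 2 tested ASVs called and a median log2 ratio of 1.80. Their part in the shares of the bacteria was not tested.

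Among phyla none passed. Each was tested as log2 of its percent plus 0.01 by an exact permutation test, two-sided, adjusted over 11 phyla. With a smallest possible p of 0.0286 a single phylum cannot pass this adjustment. Verrucomicrobiota went from 0%, 0.0131% and 0% to 0.297%, 0.630%, 0.767% and 0.414%, without overlap (exact permutation p = 0.0286, adjusted p = 0.314). Besides Akkermansia it held Puniceicoccaceae, at 0%, 0.0131% and 0% before and 0.224%, 0.449%, 0.0462% and 0.140% after. Pseudomonadota went from 8.47% ± 2.33 to 3.93% ± 2.90 (exact permutation p = 0.0857, adjusted p = 0.393), with library 10 at 8.22% apart from the other 3 after DSS. These sums include the mitochondrial sequences, at means of 0.0276% before and 0.470% after. Bacteroidota went from 68.7% ± 10.8 to 56.5% ± 19.7 and Bacillota from 13.2% ± 9.41 to 21.0% ± 13.2 (exact permutation p = 0.429 and 0.400). Campylobacterota stood at 7.48% ± 4.35 and 10.0% ± 4.36, Deferribacterota at 1.06% ± 1.03 and 7.43% ± 5.97, and Thermodesulfobacteriota at 0.981% ± 0.666 and 0.595% ± 0.305. Spirochaetota stood at 0.0781% ± 0.0683 and 0.00156% ± 0.00312, and Actinomycetota at 0.0517% ± 0.0353 and 0.0364% ± 0.0331. The remaining 2 entries, Eukaryota and bacteria without a phylum, reached at most 0.00374% in any library of the arm.

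Diversity within a library did not separate the times. The Shannon index, in natural log units, was 3.71, 4.14 and 3.76 before DSS and 3.79, 3.84, 3.45 and 3.36 after, with overlap (exact permutation p = 0.286, two-sided). At an equal depth of 48847 counts, libraries 1 to 3 held 195, 190 and 163 ASVs and libraries 8 to 11 held 177, 159, 145 and 127. The mean was 183 ± 17.5 before and 152 ± 21.4 after, and libraries 3 and 8 overlapped (exact permutation p = 0.114, two-sided).

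The course of the GPR15L arm was then set against that of the PBS arm by the interaction term of the same edgeR fit, which asks whether a taxon's change over DSS differed between the arms. It differed for 28 of 282 ASVs (9.93%), 10 with a higher and 18 with a lower change in the GPR15L arm, for 3 of 78 genera (3.85%), for 2 of 38 families (5.26%) and for 3 of 27 orders (11.1%). Of the 28 ASVs, 26 were at 0 in all libraries of at least 1 group. At an unadjusted p under 0.05 there were 80 ASVs, 16 genera, 10 families and 8 orders. With library 7 counted as PBS after DSS the differences came to 9 ASVs, 0 genera, 0 families and 0 orders. The fitted values below depend on a prior count where a group is at 0, so only the shares and the adjusted p are given. Before DSS the arms lay apart by Bray-Curtis distances between 0.423 and 0.771 (median 0.579 over 9 pairs), and a difference in course can come from either time.

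Some ASVs held a larger share after DSS in the GPR15L arm than in the PBS arm, and these are named here after their values were seen. ASV4 and ASV10 of Bacteroides stayed at means of 3.73% and 2.29% after DSS in the GPR15L arm, while in the PBS arm they went from 6.88% and 4.13% to 0 in all 4 libraries (edgeR adjusted p of the difference 0.000271 and 0.000310). ASV15 of Muribaculaceae was likewise at 0 after DSS with PBS, and had a mean of 0.156% after DSS here (edgeR adjusted p of the difference 0.0126). ASV5 of Helicobacter went from 2.65% to 0.985% here and from 9.01% to 0.109% with PBS (adjusted p = 0.00802). These differences held with each of the 14 libraries left out (up to 0.00310 for the Bacteroides ASVs, 0.0373 for ASV15 and 0.0346 for ASV5). They were all lost with library 7 counted as PBS after DSS (0.694 or higher), a library that held ASV4 at 5.73%, ASV5 at 10.0% and ASV15 at 10.5%.

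The reverse was seen for other Muribaculaceae. ASV50, at 0 after DSS in the GPR15L arm, held 0.603%, 0.407% and 0% before and 0.693%, 1.02%, 0.289% and 0.650% after in the PBS arm (edgeR adjusted p of the difference 0.00802). ASV44 went from 1.38%, 0.619% and 0.556% to 0 in the GPR15L arm and was at 0.276% or higher in every PBS library after DSS (adjusted p = 0.00802). ASV50 and ASV44 kept the difference with each library left out (up to 0.0287) and with library 7 as titled (0.0459 at most). ASV97 also differed (adjusted p = 0.0345), but was at most 0.0440% in the PBS arm, and the difference was lost without library 8, 10, 4, 5, 6 or 12 (up to 0.0747).

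Among taxa that rose, Parasutterella was at 0 in all PBS libraries after DSS, and its course differed (edgeR adjusted p = 0.0247 for the genus and 0.0161 for ASV96). That rested on library 6, the only PBS library before DSS that held it (0.153%). Without library 6 the PBS arm was at 0 at both times, so the difference could not be estimated. With library 7 as titled the adjusted p was 0.212 for the genus and 0.124 for ASV96. The genus also lost its difference without library 1, 3, 8 or 14. ASV99 also differed (adjusted p = 0.0165), a call likewise lost without library 6. ASV63 rose in both arms, from 0 to 0.652% ± 0.379 here and from 0.0286% ± 0.0196 to 0.619% ± 0.211 with PBS (edgeR adjusted p of the difference 0.00802; 0.0742 with library 7 as titled). Butyribacter fell in both arms, from 4.52% ± 5.57 to 0.0145% ± 0.0290 with PBS (edgeR adjusted p = 0.0245). The other genera that differed were UCG-009 and Candidatus Arthromitus, the segmented filamentous bacteria of the ileum, both lower in the course of the GPR15L arm (adjusted p = 0.0247 for each). Each was lost without library 1, 3, 8, 5 or 14 (up to 0.0695), and Candidatus Arthromitus also without library 6. The families were Christensenellaceae and Clostridiaceae (adjusted p = 0.0436 and 0.0238), both lower in the course of the GPR15L arm. Christensenellaceae had counts in library 1 alone in this arm, so without library 1 its difference could not be estimated. It was also lost without library 8, 9, 11, 5, 6, 13, 14 or 15 and with total counts. The difference of Clostridiaceae was lost without library 8 or 6 (up to 0.0566) and with edgeR's newer method (0.0981 at most over the settings). Candidatus Arthromitus was the only tested ASV of Clostridiaceae. The orders were Brachyspirales, Christensenellales and Clostridiales, also lower in the GPR15L course (edgeR adjusted p = 0.0495, 0.0228 and 0.0139). Christensenellales and Clostridiales held the same shares as these families, at most 0.0972% and 0.0247% in any library of this arm. Their calls thus repeat those of the families. With single libraries left out Clostridiales kept its difference (up to 0.0407). Christensenellales lost it without library 6, and without library 1 it could not be estimated. Brachyspirales lost it without library 1, 9, 11, 5, 6, 13, 14 or 15 (up to 0.142) and with TMM or total counts.

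**Figure D5:**
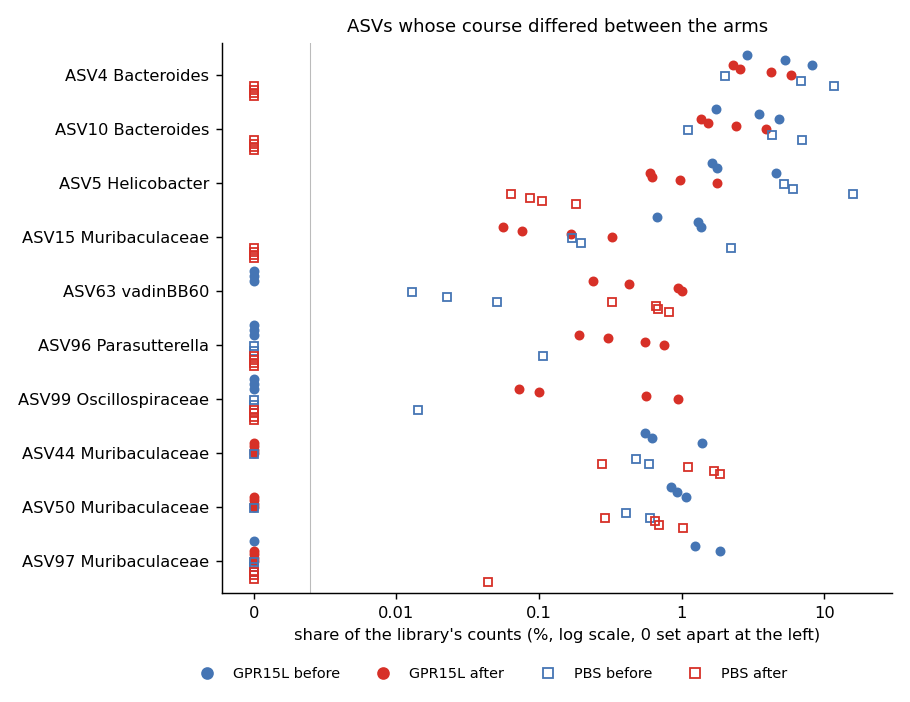
Share of a library's counts (horizontal axis, percent, log scale, with 0 set apart at the left) for 10 of the 28 ASVs whose change over DSS differed between the arms. Filled points are the GPR15L arm, open squares the PBS arm, blue before and red after DSS; ASV4 and ASV10 stay near their earlier shares in the GPR15L arm and are at 0 in all 4 PBS libraries after DSS, and ASV44 and ASV50 show the reverse.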

How the data were processed

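Per the file headers and values, the deposited table gives whole numbers: read counts for each ASV and library, with taxonomy. DADA2 appears in the table's name; which version, filters and taxonomy database the authors used is not given in the sources used here. The submitters' processing notes list R 4.5.1 and limma without saying what they did. Per the labels' protocols, 10 ng of stool DNA went through 25 PCR cycles and was sequenced as paired reads of 151 bases on an Illumina MiSeq.

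The table held 3697 ASVs, 507 with a count. Counts were summed per genus, family, order and phylum, and taxa with at least 10 counts in all and a count in 3 or more libraries were tested in edgeR 4.0.16 (R 4.3.3): quasi-likelihood in its default form, 1 mean per arm and time, TMMwsp scaling, Benjamini-Hochberg adjustment at 0.05. Each SE was taken as the absolute log2 change divided by the root of its F statistic. Folds of mean shares set a time at 0 to its floor. Library 7 was left out because its title places it after DSS with PBS while its library name continues the run from before DSS. No paired analysis was possible because no mouse number is shared between the times. Nothing in the labels says that libraries of a group came from separate cages, so p-values measure the spread between these libraries. No pair of libraries of a group agreed within sampling noise (chi-square per degree of freedom 109 or more). The fitting code was run on simulated counts with known changes. These had the same spread for all ASVs and no cage effects, so the run checks the code and not the calls.

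Named taxa are those past 0.05 with a mean of at least 0.1% at either time, up to 10 each way per level by mean share, every phylum, every genus and family of 2% or more, and the taxon lists. Any other taxon in the text, such as Rikenella, Lachnospiraceae UCG-010, UCG-009 and Odoribacter, was chosen after its values were seen. The libraries, lists and rules were chosen with earlier results of these data known. Alternatives were TMM, total counts, DESeq2 1.42.0, limma 3.58.1 voom, other filters, the 2 groups alone, library 7 as titled and each library left out. The difference between the arms over orders was added after seeing the data, as were 2 alternatives: the newer quasi-likelihood option of edgeR and a fit without library 6.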

Additional observations from a re-analysis of the deposited data

Results flagged for a closer look

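In 6 of 59 groups of 4 values after DSS, 1 library lay apart from the other 3 by Dixon's criterion. The chance rate of about 1 in 20 is for independent, normally distributed values. These groups share counts, as Turicimonas and Pseudomonadota do, so the 6 cannot be judged against it. Library 10 was the one apart for ASV20 (6.59%), ASV16 (0.265%), Turicimonas (6.49%), Pseudomonadota (8.22%) and Clostridiaceae with Peptostreptococcaceae (0.0239%), and library 9 for ASV117 (1.55%). Clostridiaceae with Peptostreptococcaceae were at 0 in libraries 8, 9 and 11.

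The change over DSS differed between the arms, by the interaction term of the edgeR fit, for ASV63 (adjusted p = 0.00802), ASV96 (0.0161), ASV99 (0.0165), ASV97 (0.0345), ASV50 (0.00802) and Parasutterella (0.0247). The last entry and ASV96 are largely the same counts. All of these but ASV50 lost the difference with library 7 as titled or with a single library left out.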

How the results depend on the processing

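No paired analysis was possible because no mouse number is shared between the times or the arms. Counts below are taxa called; the cause of each move was not tested unless stated.

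With 1 library left out, calls over DSS ranged from 21 to 32 ASVs, 0 to 3 genera, 0 to 3 families and 1 to 3 orders, and R2 from 0.524 to 0.640. The smallest exact permutation p was 0.0667 with 2 libraries left before DSS and 0.1 with 3 left after it. Calls for the difference between the arms ranged from 17 to 38 ASVs, 0 to 7 genera, 0 to 4 families and 1 to 6 orders, and were fewest for ASVs without library 5.

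Library 7 as titled gave 36 ASVs and 4 genera over DSS, and 9 ASVs, 0 genera, 0 families and 0 orders for the difference. A minimum mean share of 0.1%, which tests fewer taxa, gave 40 ASVs, 3 genera, 0 families and 0 orders over DSS. The 2 groups alone gave 18 genera, 8 families and 3 orders. Leaving out library 6 gave 17, 11 and 6, and the newer edgeR method 15, 5 and 10, with 6 genera, 4 families and 7 orders for the difference. DESeq2 gave 14 genera, 7 families and 4 orders over DSS, and 60 ASVs, 11 genera and 7 families for the difference. Limma voom gave 14, 5 and 7 over DSS, and 82 ASVs, 12 genera, 5 families and 5 orders for the difference. No count filter gave 5 families and 7 orders over DSS, and 43 ASVs, 6 families and 6 orders for the difference. TMM gave 6 families and 3 orders, and total counts gave 5 orders over DSS and 1 family for the difference. TMM moved the median log2 change of all ASVs from 0 to -0.20. Genus sums gave an R2 of 0.415.

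Named taxa that changed sign were all far from the threshold, as log2 changes over DSS. Bacteroides was at -0.17 with no count filter and -0.33 with the 2 groups alone. Helicobacter was at -0.0029 with TMM, -0.61 with no count filter, -0.56 with the 2 groups alone, and between -0.25 and 0.58 with 1 library left out. Helicobacteraceae was at -0.48 with TMM and between -0.071 and 0.54 with 1 library left out. Lachnospiraceae of no named genus was at 0.24 with total counts, 0.068 by limma voom, and between -0.79 and 0.20 with 1 library left out. Lachnospiraceae was at -0.024 with TMM and between -0.23 and 0.56 with 1 library left out. Oscillospiraceae was at 0.45 with total counts, 0.16 with DESeq2, 0.71 by limma voom, 0.39 with the 2 groups alone, 0.036 with the newer edgeR method, and between -0.56 and 0.42 with 1 library left out.

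Depth limits only taxa near 3 counts: a taxon with no count at one time could make up to 0.000912% there. At equal depth 39 ASVs, against 40, were in every library before DSS and in none after.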
